A study of Mus musculus with 9 samples.

Results

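The genes described here are 42 genes of the ATF4 response and of amino acid supply, measured in mouse embryonic fibroblasts (MEFs, connective tissue cells grown from mouse embryos). They were taken by name from the 24062 gene symbols of the count table, and not by a threshold on their values. By role they fall into 11 ATF4 response regulators and stress targets, 9 serine and one-carbon genes, 4 genes of asparagine, proline and phosphoenolpyruvate synthesis, 6 amino acid transporters and 12 cytosolic tRNA synthetases. The p21 group received lentivirus for p21 (encoded by Cdkn1a), the p16 group received lentivirus for p16 (encoded by Cdkn2a), while the control cells carried an empty vector. Both p21 and p16 inhibit cyclin-dependent kinases. Cells of all 3 groups were C57BL/6 fibroblasts that the labels call non-senescent, had been through lentiviral infection, and were collected on day 4. Each group held 3 libraries. The promoter that drove the delivered genes is not given in the sources used here. The labels do not say that the replicates were separate cultures or embryos, and p-values then measure only the spread between these samples.

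ATF4 is a transcription factor whose mRNA is translated better when the initiation factor eIF2 is phosphorylated, as happens when amino acids run short or the endoplasmic reticulum is stressed. It binds, often with a C/EBP partner, to amino acid response elements and turns on genes that make, import and charge amino acids. Because ATF4 is controlled largely at translation, its mRNA level is not a measure of its protein. Serine made by these enzymes feeds the folate cycle, whose mitochondrial and cytosolic arms supply one-carbon units for nucleotides and methylation.

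Library totals ran from 44455730 to 63152239 counts, and all 42 genes were among the 14223 that passed a filter on low counts. Cdkn1a stood at 1773, 1429 and 1612 CPM (read counts scaled to a common library total, with TMM factors) in the p21 libraries, against 350, 374 and 356 CPM in the empty vector libraries. Cdkn2a stood at 1927, 1576 and 1691 CPM in the p16 libraries, against 36.9, 42.2 and 34.7 CPM in the empty vector libraries. In the p21 libraries Cdkn2a stood at 48.1, 47.4 and 44 CPM, above all empty vector libraries (log2 fold change 0.29, edgeR adjusted p = 0.0111). In the p16 libraries Cdkn1a stood at 371, 379 and 367 CPM (log2 fold change 0.05, edgeR adjusted p = 0.672). Each delivered gene was therefore highest in the group labelled with it. All 10 fibroblast markers were detected in every library, at a summed 30000 to 32100 CPM of library totals with p21, 31000 to 33600 with p16 and 28000 to 31900 with the empty vector. Singly, 3 of these 10 rose and 2 fell with p21 (4 and 3 with the replicate number as a block), with log2 fold changes from -0.99 to 0.26. With p16 0 passed (4 rose and 1 fell with the block). Of 18 macrophage and leukocyte markers 17 were in the table under the symbols used. They summed to 48.7 to 67.3 CPM of library totals in the p21 libraries, 38.4 to 67.5 in the p16 libraries and 30.3 to 48.2 in the empty vector libraries. No marker of that list was at 0 in a p21 or p16 library, and 1 was at 0 in each empty vector library. Of the 16 leukocyte markers tested 8 rose and 0 fell with p21 (13 and 0 with the replicate number as a block), and 0 passed with p16 (7 rose with the block). Over all genes tested 19.8% rose and 20.1% fell with p21 (24% and 24.2% with the block). With p16 these shares were 5.8% and 5.56% (11.3% and 10.1% with the block). Epithelial markers summed to 13.1 to 16.1 CPM and endothelial markers to 2.15 to 3.45 CPM over all 9 libraries. The part of these cells in the results below was not tested. In bulk RNA a change in the number of cells of a type and a change in RNA per cell cannot be told apart. The replicate 3 libraries stood apart: they held Xist, the X-inactivation RNA, at 193 CPM (p21), 181 CPM (p16) and 251 CPM (empty vector). Of the other libraries p21 replicate 1 held 6.96 CPM of Xist (413 counts), and the rest held 0.0902 to 0.34 CPM.

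The upstream sequence of 4 genes is shown, 1 for each of 4 roles, because 3 of them hold the letters of an amino acid response element and the fourth, from the role with the most falls, does not. Each is the 250 bases before a RefSeq transcription start (build GRCm38.p6), read 5′ to 3′ on the strand of the gene. Capitals mark matches to TGATGNAA on either strand, where N is any base, and bases past the start were left out. Nupr1 lies at chr7:126625471-126625720 on the minus strand, Asns at chr6:7693210-7693459 on the minus strand, Aars at chr8:111033592-111033841 on the plus strand, and Shmt2 at chr10:127522445-127522694 on the minus strand.
Nupr1: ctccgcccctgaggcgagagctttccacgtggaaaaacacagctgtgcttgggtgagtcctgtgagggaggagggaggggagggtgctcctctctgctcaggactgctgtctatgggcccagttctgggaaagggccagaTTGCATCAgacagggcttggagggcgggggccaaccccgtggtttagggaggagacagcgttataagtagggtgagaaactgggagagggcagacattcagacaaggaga
Asns: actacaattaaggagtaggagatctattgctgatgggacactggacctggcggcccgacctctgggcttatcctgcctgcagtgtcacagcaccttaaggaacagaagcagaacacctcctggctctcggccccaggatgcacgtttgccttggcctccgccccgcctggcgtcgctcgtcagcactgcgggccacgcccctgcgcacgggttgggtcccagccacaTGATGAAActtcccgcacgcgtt
Aars: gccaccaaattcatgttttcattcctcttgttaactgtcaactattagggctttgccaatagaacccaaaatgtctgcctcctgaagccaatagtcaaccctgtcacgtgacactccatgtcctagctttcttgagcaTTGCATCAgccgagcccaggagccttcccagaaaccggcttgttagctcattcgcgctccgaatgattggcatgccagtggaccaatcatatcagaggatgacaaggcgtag
Shmt2: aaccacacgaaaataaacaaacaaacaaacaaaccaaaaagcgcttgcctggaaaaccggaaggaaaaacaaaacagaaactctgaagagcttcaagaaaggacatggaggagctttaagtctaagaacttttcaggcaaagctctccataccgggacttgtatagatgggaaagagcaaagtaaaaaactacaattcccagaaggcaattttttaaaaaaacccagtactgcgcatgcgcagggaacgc
The match began at position -110 from the start in Nupr1, at -112 in Aars and at -23 in Asns. Those of Nupr1 and Aars also fitted the longer form TGATGCAAT, which contains the first motif. RefSeq windows of 300 bases (250 before and 50 after the start) were matched for 35 of the 42 genes. Aldh1l2, Slc7a5, Slc1a5, Wars, Nars, Cars and Lars had no entry in the table used. TGATGNAA or its reverse complement was found for 13 of the 35 (37.1%), against 668 of all 16782 symbols with a window (3.98%). TGATGCAAT was found for 4 of the 35 (11.4%: Nupr1, Pycr1, Aars and Iars), against 0.238% of all symbols with a window. By role the shorter motif was present in 4 of 11 regulator and stress genes, 0 of 8 serine and one-carbon genes, 3 of 4 asparagine, proline and phosphoenolpyruvate genes, 1 of 4 transporters and 5 of 8 synthetases. The 42 genes were chosen by name for the ATF4 response and amino acid supply, and ATF4 binds such elements. A share above that of all symbols therefore follows in part from the choice of genes and is no separate result. A match of letters is a description of the sequence, and the absence of one says only that these letters are not in this window.

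With p21, 16 of the 42 genes fell and 7 rose relative to the empty vector, where 20.1% of all 14223 genes tested fell and 19.8% rose. These 16 make up 38.1% of the genes and these 7 make up 16.7%. In either direction 39.9% of all genes passed. Of the 42 genes 16 were lower and 7 higher in all p21 libraries than in all empty vector libraries, against 25% and 24.2% of all genes (49.1% in either direction). The median log2 fold change of the 42 genes was -0.11, against 0 over all genes tested. The falls lay mainly in the one-carbon enzymes (7 of 9 serine and one-carbon genes, median -0.38) and the transporters (4 of 6, median -0.14). Of the regulator and stress genes 4 of 11 fell and 3 rose (median -0.17). Of the synthetases 1 of 12 fell and 3 rose (median 0.00), and of the asparagine, proline and phosphoenolpyruvate genes none of 4 passed the test (median -0.13). With the replicate number as a block 21 of the 42 genes fell and 7 rose, where 24.2% of all genes fell and 24% rose. The falls then took in 7 of 9 serine and one-carbon genes, 6 of 6 transporters and 5 of 11 regulator and stress genes. They also took in 2 of 4 asparagine, proline and phosphoenolpyruvate genes and 1 of 12 synthetases. Together the 42 genes took 0.546%, 0.561% and 0.576% of the counts in the p21 libraries and 0.593%, 0.604% and 0.634% in the empty vector libraries. Scaling by library totals alone, without TMM, lowered the median of all genes by 0.049 on the log2 scale. Among the genes that passed, the share that was higher moved to 36.8% from 49.6%. With this scaling 4 of the 42 genes were higher and 23 lower.

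With p16, 3 of the 42 genes rose and 4 fell relative to the same empty vector libraries, where 5.8% of all genes tested rose and 5.56% fell. In either direction 11.4% of all genes passed. Without overlap between libraries 6 were higher and 7 lower, against 16.1% and 16.6% of all genes (32.7% in either direction). At 7.14% and 9.52% the shares that passed lay near those of all genes, and the median log2 fold change was 0.00. The 3 that rose were Nupr1, Ddit3 and Ppp1r15a, and the 4 that fell were Shmt1, Mthfd1, Mthfd1l and Slc7a5. With the replicate number as a block 7 fell, the additional ones being Atf4, Shmt2 and Slc1a5, where 10.1% of all genes fell. Without p16 replicate 1, p16 replicate 2 or empty vector replicate 3, 2 fell. Scaling by library totals alone moved the share that was higher, among all genes that passed with p16, to 33.3% from 51.1%.

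Between p21 and p16 directly, 10 of the 42 genes were lower with p21 and 1 was higher, where 6.91% of all genes tested were lower and 6.15% higher. In either direction 13.1% passed. Without overlap between libraries 18 were lower and 4 higher, against 16.3% and 14.9% of all genes (31.2% in either direction). The 10 that passed are 23.8% of the genes. They comprised 5 of 9 serine and one-carbon genes, 3 of 6 transporters and 2 of 11 regulator and stress genes. The single gene that was higher was a synthetase, Nars. With the replicate number as a block 17 were lower and 4 higher, where 11.6% of all genes were lower and 11% higher. Without p21 replicate 1, 6 were lower, and without p21 replicate 1, p16 replicate 1 or p16 replicate 3 none was higher. Scaling by library totals alone moved the share that was higher, among all genes that passed here, to 37% from 47.1%. The comparisons of p21 and of p16 with the empty vector share their control libraries, so the values of each are given side by side below.

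**Figure D1:**
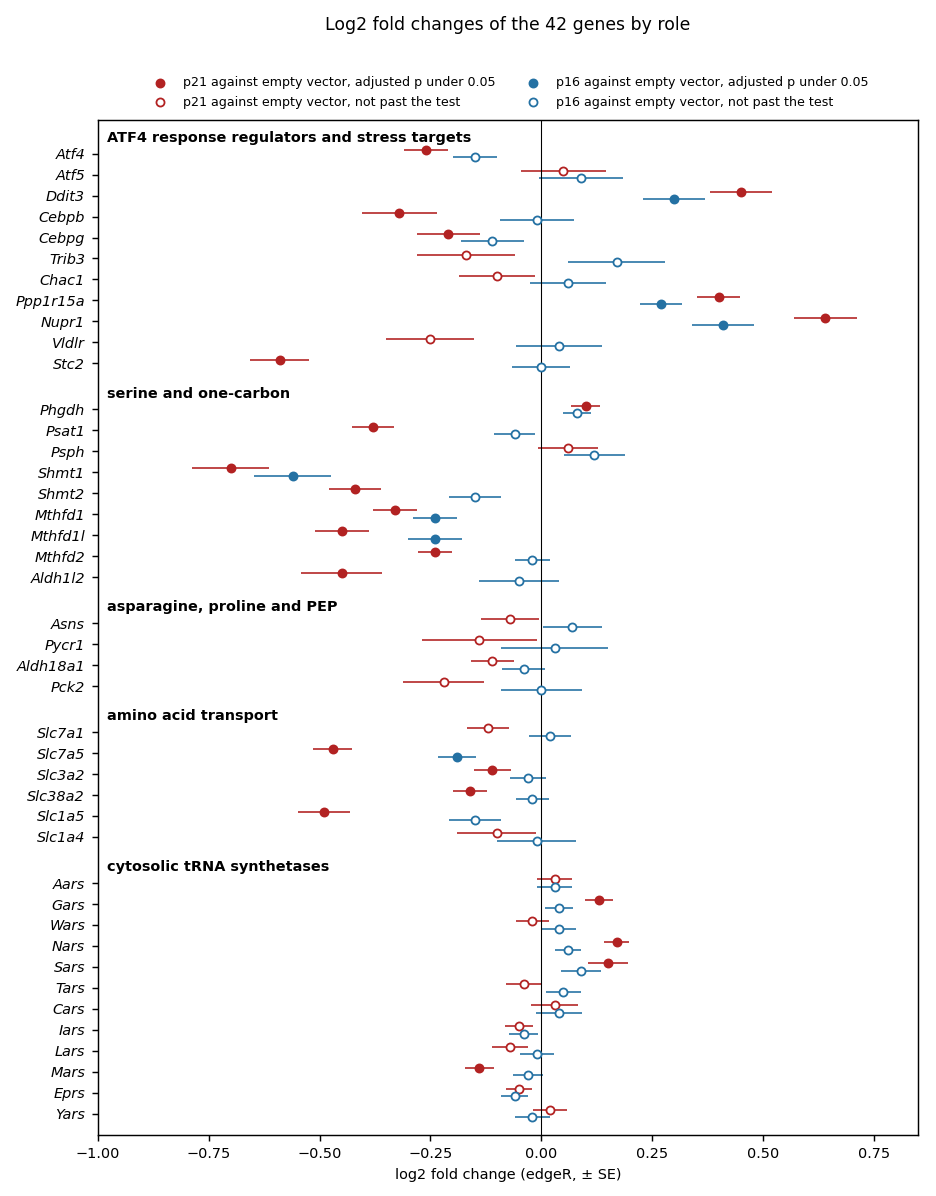
Log2 fold change of each of the 42 genes (horizontal axis, edgeR estimate ± SE) by role, with p21 in red and p16 in blue, each against the empty vector (n = 3 libraries a group). Filled points passed the test at an adjusted p under 0.05. With p21 the largest falls are Shmt1 at -0.70 and Stc2 at -0.59 and the largest rise is Nupr1 at 0.64, and the p16 points of Shmt1 at -0.56 and Nupr1 at 0.41 are the farthest from 0 in blue.

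Among the regulators, Atf4 itself was lower with p21. Atf4 (chr15:80255184-80257541, GRCm38, plus strand) stood at 204, 204 and 229 CPM in the p21 libraries, 221, 232 and 236 CPM in the p16 libraries, and 242, 254 and 267 CPM in the empty vector libraries. The p21 libraries did not overlap those of the empty vector, nor did those of p16. With p21 its log2 fold change was -0.26 ± 0.05 (SE, n = 3 each, edgeR adjusted p = 0.00134). With p16 it was -0.15, which did not pass (edgeR adjusted p = 0.0799) but did with the replicate block (0.00217). Between p21 and p16 it was -0.11 (edgeR adjusted p = 0.167, and 0.0131 with the block).

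The 3 genes that rose with p21 in this role, Nupr1, Ddit3 and Ppp1r15a, are the same 3 that rose with p16. Nupr1 (chr7:126623249-126630861) encodes a small stress-induced chromatin protein. It had 158, 157 and 133 CPM in the p21 libraries, 125, 138 and 120 CPM in the p16 libraries, and 89.9, 99.5 and 98.3 CPM in the empty vector libraries. Every p21 and p16 library lay above every empty vector library, while p21 and p16 overlapped. The change on the log2 scale was 0.64 ± 0.071 with p21 (SE, n = 3 each, edgeR adjusted p = 2.06e-05) and 0.41 ± 0.07 with p16 (0.00337). Between p21 and p16 it was 0.22 (edgeR adjusted p = 0.055), which passed with the block (0.00108), without p21 replicate 3 (0.00581) or p16 replicate 2 (0.0408), and with DESeq2 (0.0124).

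Ddit3 (chr10:127290774-127296288) encodes CHOP, a C/EBP family factor of the stress response linked to cell death. It had 24.9, 26.7 and 26.3 CPM with p21, 22.7, 22.6 and 24.6 CPM with p16, and 17, 19 and 21 CPM with the empty vector. The groups stood in that order without overlap. The fitted log2 fold change was 0.45 ± 0.07 with p21 (edgeR adjusted p = 0.000295) and 0.30 ± 0.07 with p16 (0.0188), and 0.16 between p21 and p16 (0.17). The p16 call was lost without p16 replicate 2 or 3 or empty vector replicate 1 or 2 (edgeR adjusted p = 0.0506 to 0.0774). Of the exon bases of Ddit3 4.73% overlap genes on the opposite strand, including the synthetase gene Mars, and the reads of such stretches cannot be separated in libraries that keep no strand. Ppp1r15a encodes GADD34, which directs a phosphatase to eIF2 and so ends the response. It had 50.1, 47.1 and 44.8 CPM with p21, 43.2, 42.6 and 43.5 CPM with p16, and 37.1, 35.6 and 34.6 CPM with the empty vector. Again no group overlapped another. By edgeR the log2 fold change was 0.40 ± 0.048 with p21 (edgeR adjusted p = 4e-05) and 0.27 ± 0.048 with p16 (0.00457). Between p21 and p16 it was 0.13 (edgeR adjusted p = 0.0873, and 0.033 with the block).

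Stc2, which encodes a secreted glycoprotein of the stress response, was lower with p21 alone among the comparisons with the empty vector. It had 13.6, 12 and 14 CPM with p21, 20.7, 19.1 and 20.1 CPM with p16, and 20.7, 19.9 and 19.2 CPM with the empty vector. The p21 libraries lay below all 6 others, and the p16 and empty vector libraries overlapped. The log2 fold change was -0.59 ± 0.067 against the empty vector (edgeR adjusted p = 2.41e-05) and -0.59 ± 0.067 against p16 (0.000136). Cebpb and Cebpg both fell with p21, while Ddit3, which also encodes a C/EBP family factor, rose as given above. Cebpb, whose protein pairs with ATF4, had 11.6, 10.9 and 12.1 CPM with p21, 14, 12.8 and 16.2 CPM with p16, and 14.4, 14.2 and 14.7 CPM with the empty vector. Its p21 libraries lay below all others. Its log2 fold change was -0.32 ± 0.085 against the empty vector (edgeR adjusted p = 0.00907) and -0.31 ± 0.084 against p16 (0.0304). The difference from p16 did not pass without p21 replicate 1 or 2 or p16 replicate 1 or 3 (edgeR adjusted p = 0.0682 to 0.108). Of the exon bases of Cebpb 20.7% overlap Tmem189 on the opposite strand. Cebpg, which encodes another ATF4 partner, had 31.2, 31.5 and 36.0 CPM with p21, 33.1, 34.0 and 38.5 CPM with p16, and 38.9, 35.3 and 39.6 CPM with the empty vector. Its p21 and empty vector ranges overlapped, and the log2 fold change of -0.21 ± 0.071 (edgeR adjusted p = 0.0356) did not pass without p21 replicate 1 or 2 or empty vector replicate 1 or 3 (0.101 to 0.128).

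The other 4 genes of this role did not pass in the edgeR fit by group, and Trib3 and Vldlr passed in other fits. Atf5, which encodes a related factor that is also controlled at translation, ranged from 108 to 129 CPM with p21, 108 to 133 CPM with p16 and 103 to 129 CPM with the empty vector. Its log2 fold change was 0.05 with p21 and 0.09 with p16 (edgeR adjusted p = 0.707 and 0.593). Trib3, which encodes a pseudokinase that restrains ATF4, had 20.4, 18.2 and 21.9 CPM with p21, 23.8, 25.8 and 26.8 CPM with p16, and 18.5, 23.4 and 26.3 CPM with the empty vector. Its p21 libraries lay below those of p16, with a log2 fold change of -0.34 (edgeR adjusted p = 0.058, 0.00122 with the block, and 0.0153 with DESeq2). It also passed without p21 replicate 3 or empty vector replicate 1 or 3 (edgeR adjusted p = 0.0159 to 0.0492). Vldlr, which encodes a lipoprotein receptor, had 25.1, 23.9 and 28.0 CPM with p21, 28.4, 32.1 and 33.5 CPM with p16, and 26.5, 29.6 and 35.8 CPM with the empty vector. With the block its log2 fold changes of -0.25 against the empty vector and -0.29 against p16 passed (edgeR adjusted p = 0.0011 and 0.000703, without the block 0.0599 and 0.077), and both passed with DESeq2 (0.032 and 0.0278). Leaving out p21 replicate 3 or empty vector replicate 1 brought the first past the test (edgeR adjusted p = 0.0354 and 0.016), and leaving out empty vector replicate 3 the second (0.029). Chac1, which encodes an enzyme that degrades glutathione, ranged from 15.3 to 18.7 CPM with p21, 17.8 to 20.3 CPM with p16 and 16.8 to 20 CPM with the empty vector. Per kilobase of exon, in the empty vector libraries, Atf4 was the highest of the 11 genes at 108 ± 5.13 CPM per kb (SD, n = 3), ahead of Atf5 at 56.3 ± 7.39. Ddit3 stood at 11.1 ± 1.15, Chac1 at 11.1 ± 1 and Trib3 at 10.7 ± 1.87 CPM per kb, within each other's spread, and Vldlr was the lowest at 3.04 ± 0.468.

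**Figure D2:**
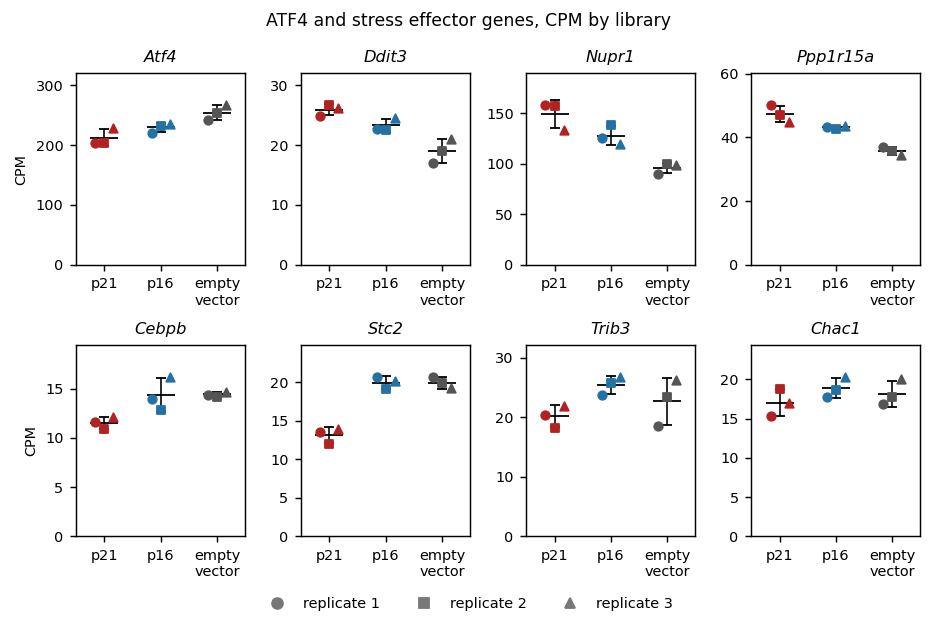
CPM (vertical axis, from 0) of 8 regulator and stress genes in each library, by group (p21, p16, empty vector), with the replicate number as the symbol and bars for the mean ± SD (n = 3). Ddit3, Nupr1 and Ppp1r15a sit higher with p21 and p16 than with the empty vector, while Atf4 runs from 204 CPM in p21 replicates 1 and 2 to 267 CPM in empty vector replicate 3, and Stc2 is low in the p21 libraries only, at 12 to 14 CPM.

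Of the 3 genes of serine synthesis, Phgdh rose, Psat1 fell and Psph did not pass with p21. Phgdh, which encodes the first enzyme of serine synthesis from glucose, had 317, 311 and 325 CPM with p21, 314, 305 and 321 CPM with p16, and 289, 297 and 301 CPM with the empty vector. The p21 and p16 libraries both lay above those of the empty vector. The log2 fold change with p21 was 0.10 ± 0.032 (edgeR adjusted p = 0.0232), a call that was lost under library totals alone (0.05, adjusted p = 0.202). It was also lost without p21 replicate 1 or 3 or empty vector replicate 1 or 2 (edgeR adjusted p = 0.0567 to 0.0884). Psat1, which encodes the second enzyme, had 233, 224 and 255 CPM with p21, 293, 297 and 297 CPM with p16, and 303, 297 and 325 CPM with the empty vector. All p21 libraries lay below all others. The change on the log2 scale was -0.38 ± 0.047 against the empty vector (edgeR adjusted p = 5.51e-05) and -0.31 ± 0.047 against p16 (0.001). Psph, which encodes the last enzyme of the pathway, ranged from 30.4 to 36.0 CPM with p21, 32.7 to 36.0 CPM with p16 and 29.5 to 33.7 CPM with the empty vector, and did not pass in any comparison by edgeR, with or without the block. Of its exon bases 10.4% overlap Cct6a on the opposite strand.

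All 6 folate enzymes of the list fell with p21, 2 of the cytosol and 4 of mitochondria. In the cytosol, Shmt1 (chr11:60788104-60811718) encodes the hydroxymethyltransferase that moves a carbon between serine and folate. It had 7.38, 9.35 and 8.15 CPM with p21, 9.49, 9.22 and 8.78 CPM with p16, and 13.3, 14 and 13.1 CPM with the empty vector. Every p21 and p16 library lay below every empty vector library, and p21 and p16 overlapped. The fitted log2 fold change was -0.70 ± 0.087 with p21 (edgeR adjusted p = 5.21e-05) and -0.56 ± 0.087 with p16 (0.00214), the largest fall of the 42 genes in each comparison with the empty vector. Mthfd1, which encodes the trifunctional enzyme of the cytosolic cycle, had 56.1, 57.8 and 53.7 CPM with p21, 61.2, 59.0 and 58.1 CPM with p16, and 72.1, 72.4 and 66.0 CPM with the empty vector. The 3 groups did not overlap. Its log2 fold change was -0.33 ± 0.049 with p21 (edgeR adjusted p = 0.000204) and -0.24 ± 0.049 with p16 (0.00869). Neither cytosolic gene passed between p21 and p16 (edgeR adjusted p = 0.309 for Shmt1 and 0.266 for Mthfd1), which does not show that p21 and p16 act alike on them.

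The 4 mitochondrial genes were lower with p21 than with either p16 or the empty vector. Shmt2 (chr10:127517123-127522444), whose upstream sequence is printed above, encodes the mitochondrial hydroxymethyltransferase. It had 144, 158 and 163 CPM with p21, 181, 188 and 193 CPM with p16, and 192, 204 and 226 CPM with the empty vector. The p21 libraries lay below all others, while p16 and empty vector overlapped by 1 library. The log2 fold change with p21 was -0.42 ± 0.059 against the empty vector (edgeR adjusted p = 0.000132) and -0.27 ± 0.059 against p16 (0.00959). With p16 it was -0.15, not past the test (edgeR adjusted p = 0.133), and passed with the block (0.00362). Mthfd2, which encodes the mitochondrial dehydrogenase and cyclohydrolase common in growing cells, had 97.3, 102 and 104 CPM with p21, 116, 120 and 118 CPM with p16, and 117, 119 and 124 CPM with the empty vector. Here p16 and the empty vector overlapped and p21 stood below both. The log2 fold change was -0.24 ± 0.039 against the empty vector (edgeR adjusted p = 0.000381) and -0.22 ± 0.039 against p16 (0.00306).

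Mthfd1l encodes the mitochondrial enzyme that releases formate for export to the cytosol. It had 55.1, 57.2 and 61.5 CPM with p21, 66.6, 66.3 and 68.3 CPM with p16, and 75.3, 75.5 and 87.1 CPM with the empty vector, with no overlap of groups. On the log2 scale the change was -0.45 ± 0.061 with p21 (edgeR adjusted p = 9.78e-05), -0.24 ± 0.061 with p16 (0.0242) and -0.21 ± 0.061 between p21 and p16 (0.0393). The p16 call was lost without p16 replicate 1 or 2 or empty vector replicate 3 (edgeR adjusted p = 0.0644 to 0.0878). The call between p21 and p16 was lost without p21 replicate 1 or 2 or any p16 library (edgeR adjusted p = 0.0857 to 0.144). Aldh1l2, which encodes the mitochondrial enzyme that turns formyl folate into carbon dioxide and NADPH, had 65.6, 66.3 and 75.7 CPM with p21, 86.7, 86.0 and 101 CPM with p16, and 87.0, 87.7 and 109 CPM with the empty vector. The p21 libraries lay below all others and p16 overlapped the empty vector. Its log2 fold change was -0.45 ± 0.092 against the empty vector (edgeR adjusted p = 0.00189) and -0.40 ± 0.091 against p16 (0.0135, and 0.0629 without p21 replicate 1). Of its exon bases 14.1% overlap D10Wsu102e on the opposite strand.

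Per kilobase of exon the mitochondrial hydroxymethyltransferase was far above its cytosolic counterpart in the empty vector libraries. Shmt2 had 66.7 ± 5.51 CPM per kb (SD, n = 3), against 3.47 ± 0.127 for Shmt1. Mthfd2 had 34.4 ± 1.01 and Mthfd1l 17.9 ± 1.53 CPM per kb, against 15.8 ± 0.814 for Mthfd1. Mthfd2 stood above both. Phgdh, at 119 ± 2.47 CPM per kb, was the highest of the 42 genes by this measure, which divides by all annotated exon bases of a gene. Summed over the 9 serine and one-carbon genes, the p21 libraries held 1006, 1016 and 1083 CPM, the p16 libraries 1160, 1164 and 1201 CPM and the empty vector libraries 1180, 1197 and 1285 CPM. The p21 sums lay below all others.

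**Figure D3:**
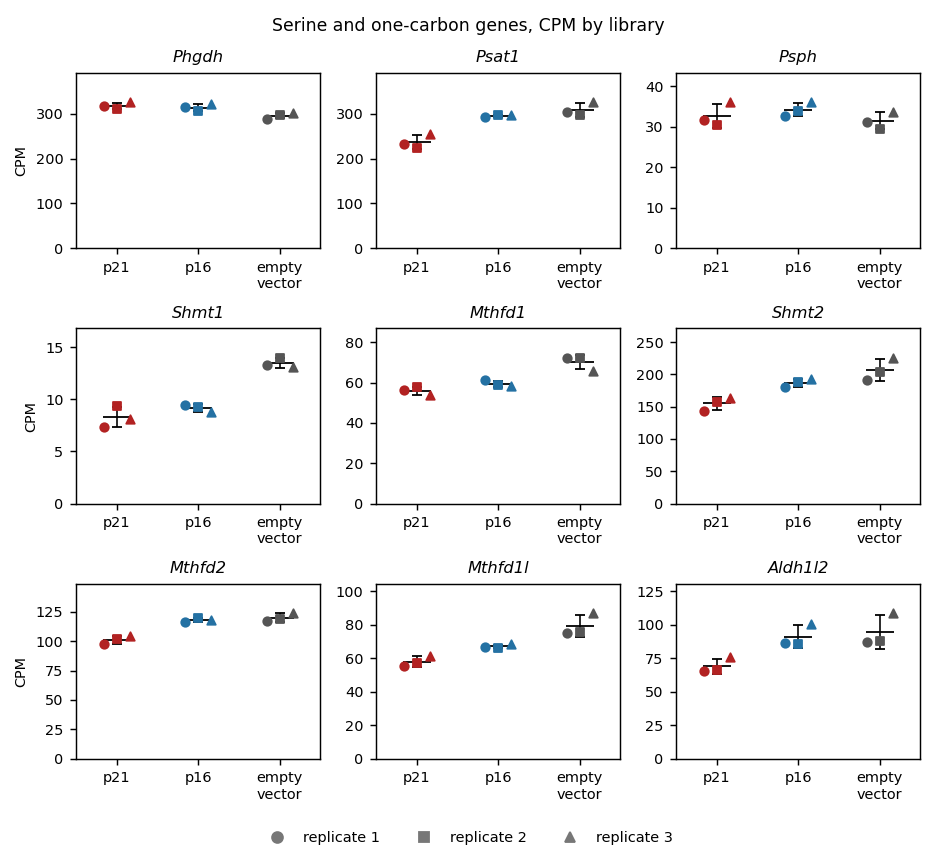
CPM (vertical axis, from 0) of the 9 serine and one-carbon genes in each library, by group (p21, p16, empty vector), with the replicate number as the symbol and bars for the mean ± SD (n = 3). In Shmt1 and Mthfd1 the p16 libraries sit near those of p21, while in Mthfd2 and Aldh1l2 they sit near those of the empty vector. In Shmt2 the p16 mean of 187 CPM lies between 155 with p21 and 207 with the empty vector. In Mthfd1l the p16 mean of 67.1 CPM lies between 57.9 with p21 and 79.3 with the empty vector. Aldh1l2 has 65.6 to 75.7 CPM with p21, 86.0 to 101 with p16 and 87.0 to 109 with the empty vector.

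None of the 4 genes of asparagine, proline and phosphoenolpyruvate synthesis passed in the edgeR fit by group, and 3 of them passed in another fit. Asns, which encodes asparagine synthetase, had 130, 135 and 151 CPM with p21, 144, 153 and 159 CPM with p16, and 135, 142 and 159 CPM with the empty vector. The 3 groups overlapped. Log2 fold changes were -0.07 with p21 (edgeR adjusted p = 0.452), 0.07 with p16 (0.581) and -0.13 between p21 and p16 (0.214, and 0.00577 with the block). Pck2, which encodes the mitochondrial kinase that makes phosphoenolpyruvate, had 85.6, 89.9 and 102 CPM with p21, 98.5, 109 and 117 CPM with p16, and 95.2, 106 and 122 CPM with the empty vector. At each replicate number the p21 library was the lowest of the 3, although the groups overlapped. With the block its log2 fold changes of -0.22 against the empty vector and -0.23 against p16 passed (edgeR adjusted p = 2.91e-05 and 7.11e-05, without it 0.0688 and 0.126). Against the empty vector it also passed without p21 replicate 3 or empty vector replicate 1 (edgeR adjusted p = 0.0244 and 0.0211) and with DESeq2 (0.0291). Aldh18a1, which encodes the first enzyme of proline synthesis from glutamate, had 146, 154 and 153 CPM with p21, 150, 159 and 167 CPM with p16, and 153, 163 and 173 CPM with the empty vector. Against the empty vector its log2 fold change was -0.11, which passed with the block (edgeR adjusted p = 0.00896, without it 0.0881), under library totals alone (0.0207) and without empty vector replicate 1 (0.0334). Pycr1, which encodes the last enzyme of proline synthesis, ranged from 10.6 to 12.8 CPM with p21, 11.7 to 15.4 CPM with p16 and 10.9 to 14.9 CPM with the empty vector.

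Of the 6 transporters 4 fell with p21, led by Slc7a5 and Slc1a5. Slc7a5 (chr8:121881150-121907694) encodes LAT1, the carrier of leucine and other large neutral amino acids. It had 164, 166 and 180 CPM with p21, 204, 204 and 215 CPM with p16, and 230, 232 and 249 CPM with the empty vector, in 3 groups without overlap. The change on the log2 scale was -0.47 ± 0.044 with p21 (edgeR adjusted p = 4.52e-06), the smallest adjusted p of the 42 genes, -0.19 ± 0.043 with p16 (0.0166) and -0.29 ± 0.044 between p21 and p16 (0.00112). The p16 call was lost without p16 replicate 1 or 2 or empty vector replicate 3 (edgeR adjusted p = 0.0505 to 0.0792). Its partner Slc3a2, which encodes the heavy chain that carries LAT1 to the membrane, had 143, 149 and 154 CPM with p21, 152, 159 and 159 CPM with p16, and 155, 160 and 168 CPM with the empty vector. All p21 libraries lay below those of the empty vector. The log2 fold change of -0.11 ± 0.041 (edgeR adjusted p = 0.0459) did not pass when p21 replicate 1 or 2, p16 replicate 1 or 2, or empty vector replicate 2 or 3 was left out (0.0529 to 0.177).

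Slc1a5 encodes ASCT2, the exchanger that brings in glutamine. It had 43.4, 49.2 and 43.9 CPM with p21, 57.9, 55.6 and 59.5 CPM with p16, and 60.4, 63.7 and 68.1 CPM with the empty vector, again without overlap of groups. This was a log2 fold change of -0.49 ± 0.059 with p21 (edgeR adjusted p = 4.05e-05) and -0.34 ± 0.059 between p21 and p16 (0.00262). With p16 it was -0.15 (edgeR adjusted p = 0.123, and 0.0298 with the block). Slc38a2, which encodes the sodium-coupled carrier SNAT2 of small neutral amino acids, had 315, 323 and 306 CPM with p21, 361, 345 and 333 CPM with p16, and 365, 347 and 344 CPM with the empty vector. Its p21 libraries lay below all others. By edgeR the log2 fold change was -0.16 ± 0.038 against the empty vector (edgeR adjusted p = 0.00455) and -0.14 ± 0.038 against p16 (0.0312). The call against p16 did not pass without p21 replicate 1 or 3, p16 replicate 1 or 2, or empty vector replicate 2 (edgeR adjusted p = 0.0552 to 0.147). Slc7a1, which encodes a carrier of arginine and lysine, had 155, 156 and 138 CPM with p21, 168, 164 and 164 CPM with p16, and 170, 163 and 157 CPM with the empty vector. All its p21 libraries lay below both other groups. With the block its log2 fold changes of -0.13 against the empty vector and -0.14 against p16 passed (edgeR adjusted p = 0.00628 and 0.00544, without it 0.0533 and 0.0696). Both also passed without the block under library totals alone (edgeR adjusted p = 0.0118 and 0.0453) and with DESeq2 (adjusted p = 0.0465 and 0.0418). Slc1a4, which encodes the neutral amino acid carrier ASCT1, had 55.2, 62.3 and 67.9 CPM with p21, 59.5, 67.8 and 69.9 CPM with p16, and 60.1, 64.7 and 73.8 CPM with the empty vector, with all groups overlapping. With p21 its log2 fold change was -0.10 (edgeR adjusted p = 0.406, and 0.0477 with the block).

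Of the 12 tRNA synthetases, which join each amino acid to its tRNA, 4 passed with p21 and 3 of these rose. The 3 are 25% of the 12, near the 19.8% of all genes tested that rose. The 1 that fell is 8.33%, against 20.1% of all genes. Nars, the synthetase for asparagine, had 447, 440 and 452 CPM with p21, 415, 424 and 402 CPM with p16, and 398, 394 and 400 CPM with the empty vector. The 3 groups did not overlap. On the log2 scale the change was 0.17 ± 0.029 with p21 (edgeR adjusted p = 0.000633) and 0.11 ± 0.029 between p21 and p16 (0.0273). The difference from p16 did not pass without p21 replicate 1 or 3 or p16 replicate 1 or 3 (edgeR adjusted p = 0.059 to 0.118). Gars, the synthetase for glycine, had 380, 365 and 392 CPM with p21, 352, 361 and 358 CPM with p16, and 342, 348 and 350 CPM with the empty vector, without overlap. With p21 its log2 fold change was 0.13 ± 0.031 (edgeR adjusted p = 0.00624), and 0.08 under library totals alone (adjusted p = 0.0525). Between p21 and p16 it was 0.09 (edgeR adjusted p = 0.0928, and 0.0446 with the block). Sars, the synthetase for serine, had 217, 216 and 239 CPM with p21, 210, 217 and 217 CPM with p16, and 192, 201 and 212 CPM with the empty vector. Its p21 libraries lay above those of the empty vector and overlapped those of p16. The log2 fold change with p21 was 0.15 ± 0.045 (edgeR adjusted p = 0.0184), a call lost under library totals alone (0.10, adjusted p = 0.0875). Leaving out p21 replicate 3 or empty vector replicate 1 or 2 also ended it (edgeR adjusted p = 0.0572 to 0.0831).

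Mars, the synthetase for methionine, was the 1 synthetase that fell. It had 129, 134 and 136 CPM with p21, 145, 141 and 143 CPM with p16, and 145, 149 and 146 CPM with the empty vector. The p21 libraries lay below all others, and the log2 fold change was -0.14 ± 0.033 against the empty vector (edgeR adjusted p = 0.00618). Against p16 it was -0.10 (edgeR adjusted p = 0.0602, and 0.0311 with the block). The other 8 passed in no comparison by edgeR, with or without the block. Their group means with p21 and with the empty vector were 331 and 324 CPM for Aars, 86.1 and 87.5 for Wars, and 189 and 194 for Tars. They were 120 and 117 CPM for Cars, 237 and 244 for Iars, 137 and 144 for Lars, 303 and 313 for Eprs, and 121 and 119 for Yars. Of the exon bases of Aars 14.3% overlap Exosc6 on the same strand. Summed over the 12 genes, the p21 libraries held 2660, 2678 and 2780 CPM, the p16 libraries 2645, 2688 and 2672 CPM and the empty vector libraries 2588, 2613 and 2708 CPM, which overlapped.

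**Figure D4:**
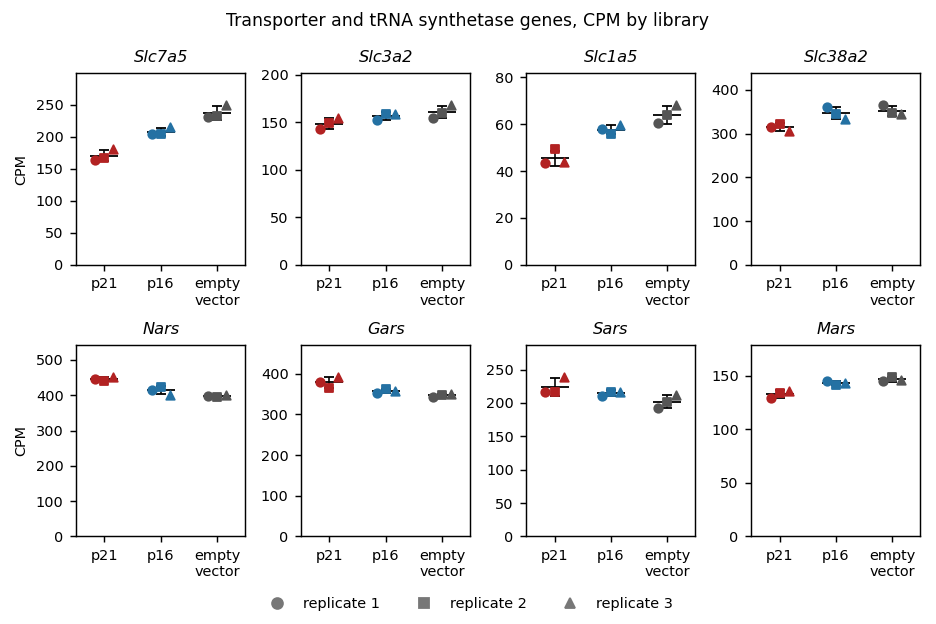
CPM (vertical axis, from 0) of 4 transporters and 4 tRNA synthetases in each library, by group (p21, p16, empty vector), with the replicate number as the symbol and bars for the mean ± SD (n = 3). Slc7a5 steps through the groups at 164 to 180, 204 to 215 and 230 to 249 CPM, and Nars runs the other way at 440 to 452, 402 to 424 and 394 to 400 CPM.

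Set beside the motif search, the 13 genes with a TGATGNAA match in their RefSeq window comprised 2 that rose with p21 (Nupr1 and Gars), 0 that fell and 11 that did not pass. The 22 genes whose windows held no match comprised 4 that rose, 13 that fell and 5 that did not pass. Over all genes tested 19.8% rose and 20.1% fell with p21. Genes without a window are in neither set: Slc7a5, Slc1a5 and Aldh1l2 fell with p21, Nars rose, and Wars, Cars and Lars did not pass. These counts are a description without a test, made after the values were seen, and the genes of a role are not spread evenly over both sets.

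Across replicate numbers the genes shared a feature that the groups do not describe. For 19 of the 42 genes (45.2%) the replicate 3 library was the highest in all 3 groups, against 9.77% of all genes tested, and for 2 genes, Mthfd1 and Slc38a2, it was the lowest, against 9.29%. By role these 19 were 6 of 11 regulator and stress genes, 5 of 9 serine and one-carbon genes, 3 of 4 asparagine, proline and phosphoenolpyruvate genes, 3 of 6 transporters and 2 of 12 synthetases. Replicate 1 was the lowest in all 3 groups for 13 of the 42 genes (31%), against 6.2% of all genes. The pattern was noticed after the values were seen and has no test, and the part of the Xist-bearing replicate 3 libraries in it was not tested. Pck2, for example, had 102 CPM in p21 replicate 3, 117 in p16 replicate 3 and 122 in empty vector replicate 3, against 85.6, 98.5 and 95.2 CPM in the replicate 1 libraries of p21, p16 and empty vector.

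**Figure D5:**
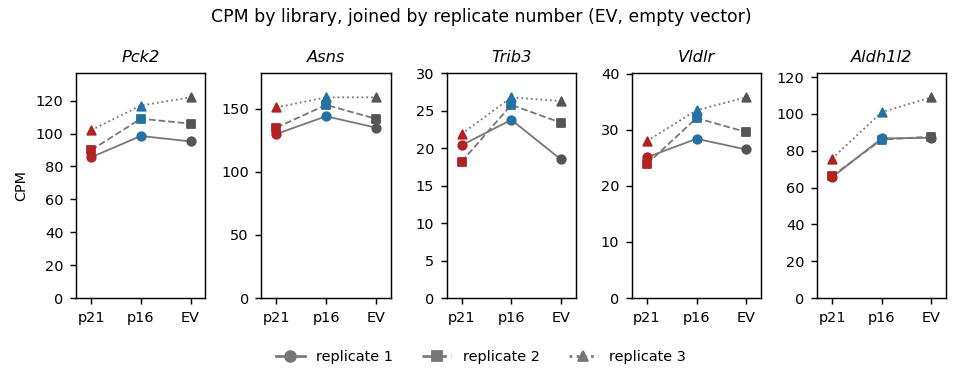
CPM (vertical axis, from 0) of Pck2, Asns, Trib3, Vldlr and Aldh1l2 by group (p21, p16 and EV, the empty vector), with a line joining the 3 libraries that carry the same replicate number. The replicate 3 line lies above the others in each panel, from 102 to 122 CPM in Pck2 and from 75.7 to 109 CPM in Aldh1l2.

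Further genes of the same pathways are set beside the 19.8% of all genes that rose and the 20.1% that fell with p21 (24% and 24.2% with the replicate block). Of 18 further ATF4 targets 3 rose and 3 fell with p21 (16.7% each), near the shares of all genes. With p16, where 5.8% of all genes rose and 5.56% fell, 3 rose (16.7%) and 0 fell. With the block these counts were 3 and 5 with p21, and 5 and 0 with p16. Among them Gdf15, a secreted stress cytokine, had 9.14 ± 1.11 CPM with p21, 8.70 ± 1.39 CPM with p16 and 5.96 ± 0.403 CPM with the empty vector (SD, n = 3; log2 fold change with p21 0.61, edgeR adjusted p = 0.00195). Ero1l, an oxidase of the endoplasmic reticulum, rose by 0.28 on the log2 scale (edgeR adjusted p = 0.00044). Slc6a9, a glycine transporter, and Slc7a11, the cystine exchanger, fell by 0.34 and 0.38 (edgeR adjusted p = 0.0116 and 0.0187), Slc7a11 not without p21 replicate 1 or empty vector replicate 3 (0.0855 and 0.0768).

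Of 15 genes of the eIF2 kinases and the eIF2 cycle 2 rose (13.3%) and 5 fell (33.3%) with p21. With p16 1 rose and 1 fell (6.67% each), where 5.8% of all genes rose and 5.56% fell. Impact, an inhibitor of the kinase GCN2 that senses uncharged tRNA, had 102 ± 4.24 CPM with p21, 80.0 ± 2.59 CPM with p16 and 67.2 ± 0.712 CPM with the empty vector. Its log2 fold change was 0.60 with p21 (edgeR adjusted p = 6.35e-07), beyond the spread between the replicates. Ppp1r15b, the constitutive counterpart of Ppp1r15a, fell by 0.25 (edgeR adjusted p = 0.000167), and the exchange factor subunits Eif2b5 and Eif2b4 fell by 0.18 and 0.21 (0.00457 and 0.00541). Of 26 other one-carbon and methionine genes 4 rose (15.4%) and 9 fell (34.6%) with p21, and 0 rose and 4 fell (15.4%) with p16 (with the block 4 and 11 with p21, and 1 and 6 with p16). Tyms, which makes thymidylate from a folate-bound carbon, fell by 0.39, and the folate carrier Slc19a1 fell by 0.41 (edgeR adjusted p = 2.99e-05 and 3.89e-05). The mitochondrial transporter gene Sfxn3 rose by 0.29 and Aldh1l1, the cytosolic counterpart of Aldh1l2, rose by 0.69 (edgeR adjusted p = 0.000161 and 0.000219). Aldh1l1 had 5.24 ± 0.305 CPM with p21, 2.92 ± 0.0614 CPM with p16 and 3.23 ± 0.0392 CPM with the empty vector, so with p21 it moved opposite to Aldh1l2.

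Of 16 other amino acid synthesis genes tested 4 rose and 4 fell with p21 (25% each, and 6 and 6 with the block), including Asl of arginine synthesis at 0.23, serine racemase Srr at 0.46, and the branched-chain transaminases Bcat1 at -0.22 and Bcat2 at -0.26 on the log2 scale (edgeR adjusted p = 0.00149 to 0.00292). Of 24 other amino acid transporters 4 rose (16.7%) and 6 fell (25%) with p21 (9 and 8 with the block). Slc43a2, a carrier of large neutral amino acids like Slc7a5, had 5.36 ± 0.337 CPM with p21, 3.93 ± 0.354 CPM with p16 and 3.18 ± 0.323 CPM with the empty vector (log2 fold change with p21 0.76, edgeR adjusted p = 0.000323). Slc38a10 rose by 0.24 and Slc38a4 fell by 0.32 (edgeR adjusted p = 0.000487 and 0.00122). Of the 11 remaining cytosolic synthetase and scaffold genes 0 rose and 5 fell with p21 (45.5%, and 6 fell with the block), among them Vars for valine at -0.35, the scaffold Aimp2 at -0.21, Kars for lysine at -0.16 and Farsb for phenylalanine at -0.16 (edgeR adjusted p = 2.1e-05 to 0.0136). Of 17 mitochondrial synthetases 0 rose and 6 fell (35.3%) with p21 by edgeR, and with the block 1 rose and 8 fell. With p16 no call was made without the block, and 1 rose and 1 fell with it. Yars2, Sars2 and Tars2 fell by 0.33, 0.31 and 0.19 with p21 (edgeR adjusted p = 0.0015 to 0.0144), Tars2 not without p21 replicate 1 or empty vector replicate 3 (0.0647 and 0.0668). In p21 against p16 these lists held 0 to 3 genes that passed in each direction (0 to 6 with the block), among them Impact (0.35, edgeR adjusted p = 0.000256) and Slc6a9 (-0.42, 0.0112). Over all genes 6.15% were higher and 6.91% lower there (11% and 11.6% with the block). Of the 18 further ATF4 targets 0 were higher and 3 lower (16.7%), and 0 and 6 with the block. Of the 26 other one-carbon and methionine genes 3 were higher (11.5%) and 2 lower (7.69%), with the block as well.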

How the data were processed

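RNA-seq counts of 9 libraries were used, 3 each with p21, p16 and an empty vector, grouped by the labels. The 1 table that the authors deposited gives whole-number read counts for each gene symbol, and its values show no normalization. Per the submitters' processing notes, TopHat2 2.0.14, Bowtie2 2.2.6, featureCounts 1.4.6 and the build mm10 were used. Which annotation and strand setting the counting used is not given in the sources used here. The kit named in the labels' protocols keeps no strand, so overlapping genes on opposite strands cannot be separated. The 42 genes and all lists were chosen with earlier results of these data known.

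The fit used edgeR 4.0.16 in R 4.3.3: filterByExpr by group (minimum count 10, minimum total 15), TMM scaling, and 1 quasi-likelihood fit by group over all 9 libraries (6 residual degrees of freedom). A two-sided F test was made for 3 comparisons, adjusted by Benjamini-Hochberg over all 14223 genes tested (threshold 0.05). "Rose" and "fell" mean an adjusted p under that threshold. Each SE is the size of the log2 fold change over the root of F. Totals ran from 44455730 to 63152239 counts. Within groups, squared differences between libraries exceeded counting error by 5.32 to 17.2 times, so no libraries were merged and the spread between libraries rather than depth sets the errors. Exon lengths and overlaps came from GENCODE M21 (GRCm38), in which 22758 of the 24062 symbols were found, and promoter sequences from RefSeq (GRCm38.p6). Each exon length joins all annotated exons of a gene and can exceed that of any single transcript. Rankings per kilobase depend on this choice.

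Every one of the 42 genes is reported. Values per library are given for those that passed in any comparison, with or without the block, and for Atf4, Ddit3 and Asns, and ranges or means for the others. Of each other list the 4 genes with the smallest adjusted p for p21 against the empty vector are named, except 1 gene that is not reported here.

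What the replicate numbers mean is not stated. Deviations from the group means had r = 0.126 to 0.361 across genes between libraries of 1 number, and -0.246 to 0.106 between those of different numbers. Libraries of 1 number thus deviated together, most of all those of replicate 3 (r = 0.332 to 0.361). For replicates 1 and 2 the gap was small, with r = 0.126 to 0.202 within a number and 0.0477 to 0.106 between the 2 numbers. The fit has no block, and the blocked value is given where it changes a call. Alternatives were RLE size factors, library totals alone, the delivered genes left out, no filter, DESeq2 1.42.0, limma-voom (limma 3.58.1), fits of only the 2 groups compared, the block, replicates 1 and 2 alone, and each library left out. The fit was also run on simulated data with known changes, larger than most reported here, and with libraries drawn independently. That run does not test how smaller changes or paired libraries are handled. Figures used Python 3.11.15, pandas 2.3.3 and matplotlib 3.10.9.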

Additional observations from a re-analysis of the deposited data

How the results depend on the processing

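Over 1690 trials of 94 log2 fold changes under the alternatives, 1551 kept their direction and side of the threshold, 61 lost and 73 gained a call, and 5 changed direction, none of them a called value. Those 5 were Atf5 (p21 against empty vector -0.03 to 0.16, p21 against p16 -0.12 to 0.04) and Asns (p21 against empty vector -0.13 to 0.00) with 1 library left out. The replicate block raised the genes called to 6856 with p21 (5681 without it), 3044 with p16 (1616) and 3214 in p21 against p16 (1858). It raised the 42 genes' lower calls to 21 with p21, 7 with p16 and 17 in p21 against p16, and the higher ones in p21 against p16 to 4. The higher calls in p21 against p16 were 2 without the filter, 2 with DESeq2, 2 with replicates 1 and 2 alone and 0 with only the 2 groups. With library totals alone 4 genes were higher with p21, and medians with p21 were -0.43 (serine and one-carbon), -0.19 (transport) and -0.05 (synthetases), and in p21 against p16 -0.13 (regulators and stress) and -0.17 (asparagine, proline and phosphoenolpyruvate). Replicates 1 and 2 alone gave medians of -0.39 for serine and one-carbon with p21 and 0.11 for regulators and stress with p16. With 1 library left out, genes called ran from 4617 to 5659 with p21, 759 (without p16 replicate 2) to 1894 with p16 and 1074 (without p16 replicate 1) to 1810 in p21 against p16. Of the 42 genes 5 to 7 were then higher and 14 to 19 lower with p21, 2 to 3 and 2 to 5 with p16, and 0 to 2 and 6 to 13 in p21 against p16. Medians then ran, with p21, from -0.23 to -0.05 (regulators and stress), -0.43 to -0.34 (serine and one-carbon), -0.20 to -0.05 (asparagine, proline and phosphoenolpyruvate), -0.17 to -0.14 (transport) and -0.02 to 0.01 (synthetases). With p16 they ran from 0.00 to 0.16, -0.13 to -0.02, -0.08 to 0.12, -0.07 to -0.03 and 0.01 to 0.05 in that order of roles, and in p21 against p16 from -0.17 to -0.08, -0.24 to -0.18, -0.22 to -0.08, -0.17 to -0.14 and -0.01 to 0.03. The causes were not tested. The lowest count of any of the 42 genes in 1 library was 412, for Shmt1.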
